A study of Caenorhabditis elegans with 4 samples.

Results

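Isolated RNA polymerase II (Pol II) regions were taken as the enriched regions on chromosomes I to V of *Caenorhabditis elegans* early embryos whose gaps to the previous and to the next region both exceeded 10000 bp. The first and the last region of each chromosome were left out. The rule gave 449 regions out of 7660 on the 5 autosomes, or 5.86%, and out of 8121 in the whole list. The members were thus chosen by measured values, the positions of the listed regions, so the gaps are a description and not a result. Width, q-value and read numbers come from the same comparison of ChIP with input and from 1 combined list without replicates. All values below are therefore descriptions, and no test was run.

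The list was made from 2 Pol II ChIP libraries and 2 input libraries. Both groups were early embryos of N2, the wild-type laboratory strain, labelled hermaphrodite, with a stated temperature of 20 degrees Celsius. The ChIP libraries used 8WG16, a mouse monoclonal antibody, and the input libraries were DNA without precipitation. Whole embryos were lysed, so a region can come from any mixture of embryonic cells.

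Pol II makes the messenger RNAs of the cell and many of its small structured RNAs, and its largest subunit in *C. elegans* is AMA-1. That subunit ends in a tail of repeated heptapeptides, which is phosphorylated as the enzyme leaves the promoter and elongates, and the antibody recognises this tail. Genes of *C. elegans* are short and closely spaced, and some are transcribed together as operons, so neighbouring Pol II signals are common. Genes of the early embryo are transcribed against a background of maternal RNA, with the germline precursor cells held largely silent.

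A gap between listed regions is not a stretch shown to lack Pol II. The recovered statistics placed 18572 regions in the authors' test. Of these, 10404 missed the q-value limit of 0.01 and are not listed, and 47 ranks stronger than the first listed region were not analysed here. If each of these 47 split a gap between 2 isolated regions, 355 of the 449 would remain, and if each were itself isolated and split none, there would be 496. The gene table at hand belongs to another genome build than the WormBase WS180 coordinates of the list. No gene is therefore named, and exon, intron or promoter positions are not given.

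Long gaps filled most of the autosomes, yet few regions stood alone between 2 of them. Of the 7655 gaps between neighbouring autosomal regions, 1687 were longer than 10000 bp. They added up to 64.9 Mb, or 79.0% of the 82.1 Mb between the first and last regions of the autosomes. These gaps divided the autosomal list into 1692 groups. A single region formed 451 of the groups (26.7%), namely the 449 isolated regions and 2 of the 10 chromosome-end regions. Groups of 2 to 4 regions numbered 647, groups of 5 to 9 numbered 401 and groups of 10 or more numbered 193. Groups of 1 made up 5.89% of the autosomal regions, against 36.3% (2778 regions) in groups of 10 or more. The largest group had 41 regions.

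The gaps around the isolated regions ran far past the limit. The shorter of the 2 gaps had a median of 18.1 kb (quartiles 13.4 and 27.7 kb) and a largest value of 222.6 kb. The longer gap had a median of 40.4 kb (quartiles 25.3 and 66.7 kb). Both gaps exceeded 20000 bp at 192 regions, 50000 bp at 35 regions and 100000 bp at 11 regions. The other 7211 autosomal regions had a nearest neighbour at a median of 511 bp (quartiles 289 and 1314 bp).

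Isolated regions were slightly narrower than the rest and had weaker q-values, while their enrichment was close to that of the rest. The median width was 420 bp in isolated regions (quartiles 191 and 809 bp) and 491 bp in other autosomal regions (quartiles 215 and 993 bp). The median −log10 q was 4.38 in isolated regions (quartiles 2.71 and 9.25) and 5.22 in other autosomal regions (quartiles 3.10 and 11.5). Fold, the ratio of ChIP to input reads within a region, had a median of 2.40 in isolated regions (quartiles 1.94 and 3.03) and 2.43 in other autosomal regions (quartiles 1.98 and 3.15). The quartile ranges of both sets overlapped in all 3 measures, with both quartiles lower in isolated regions. The order of the q-values turned when neighbours within 1000 bp were first merged, with a median −log10 q of 6.45 in isolated and 6.39 in other merged regions. In the mean over 10 matched classes it also turned, by 0.098 for width and 0.94 for total reads, although the isolated median was the lower one in 5 of 7 fixed width classes and in 7 of the 10 read classes, and the class of most reads alone had a difference of 11.3. The order of the folds turned when chromosome III or IV was left out, by 0.0051 and 0.0077 on the log2 scale. In the mean over 10 matched classes it did not turn, with log2 ratios of −0.058 for width and −0.062 for total reads.

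Median read numbers, like the median width, were lower in isolated regions. A median of 94 ChIP reads and 44 input reads lay in an isolated region, and a median of 108 ChIP reads and 47 input reads in another autosomal region. Mean ChIP reads had the opposite order, 213.7 in isolated and 201.9 in other autosomal regions, at mean widths of 826 and 844 bp. Single isolated regions held up to 3728 ChIP reads. Summed over the set, the 449 isolated regions held 95937 ChIP and 36899 input reads over 371 kb. Isolated regions thus made up 5.86% of the autosomal regions, 5.74% of their covered length, 6.19% of their ChIP reads and 5.94% of their input reads. Per kb of region, isolated regions held 258.8 ChIP and 99.6 input reads, against 239.9 ChIP and 96.4 input reads per kb in other autosomal regions. Input numbers are those used in the test of the authors and may have been scaled beforehand. The libraries had no stated molecular identifiers, so reads need not be separate molecules and the intervals on folds below cover counting error only.

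**Figure D1:**
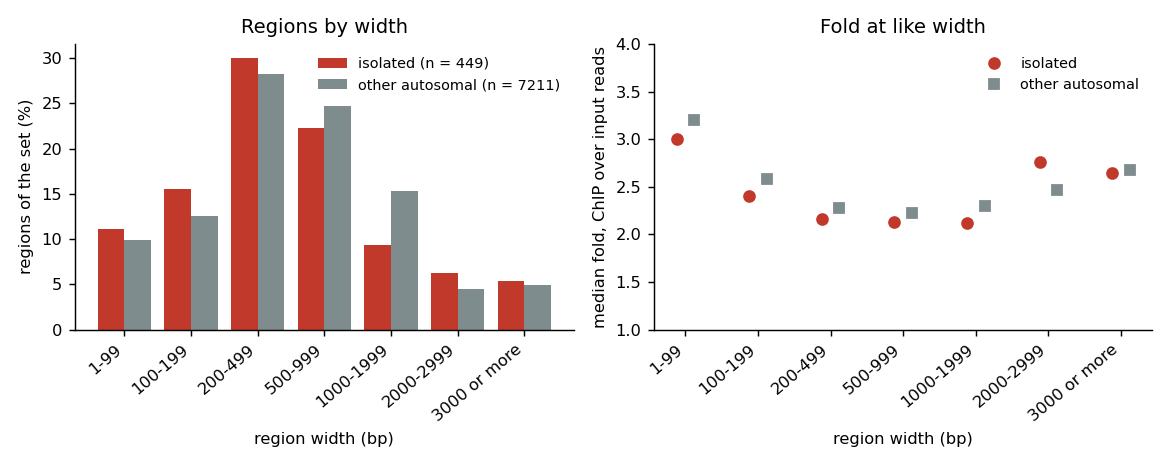
The left panel gives the share of regions (%) in 7 classes of region width (bp), and the right panel the median fold of ChIP over input reads in the same classes. Red stands for the 449 isolated regions and grey for the 7211 other autosomal regions. The class from 1000 to 1999 bp held 9.35% of the isolated regions and 15.3% of the others, and in 6 of 7 classes the isolated median fold was the lower one.

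The width distribution differed in shape as well as in its median. Isolated regions from 1000 to 1999 bp wide numbered 42, or 9.35%, against 1104, or 15.3%, of the other autosomal regions. Under 500 bp and from 2000 bp upward the isolated shares were the larger ones. The class from 2000 to 2999 bp held 28 isolated regions (6.24%), against 321 others (4.45%). At like width the enrichment of both sets lay close together. Between 200 and 499 bp the median fold was 2.17 in 135 isolated regions and 2.27 in 2035 others. Between 2000 and 2999 bp, the exception in direction, it was 2.76 in isolated regions and 2.46 in others.

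Counts past fixed limits showed a larger share of weak regions among the isolated ones than among all autosomal regions. A q-value under 1e-05 was reached by 202 of 449 isolated regions (45.0%), beside 51.2% of all autosomal regions and 51.6% of the others. At q under 1e-10 the isolated share was 23.2% (104 regions, 95% Clopper-Pearson interval 19.3 to 27.3), beside 28.1% of all autosomal regions. A q-value under 1e-50 was reached by 31 isolated regions (6.90%, 4.74 to 9.66), a share near the 5.5% of all autosomal regions. The 47 stronger ranks that were not analysed are in neither share. At the weak end, 139 isolated regions (31.0%) had q over 0.001, beside 23.8% of all autosomal regions. The 3643 other autosomal regions with a shorter gap over 500 bp, chromosome ends set aside, lay closer to the isolated ones. Their quartiles of −log10 q were 2.82 and 9.02, against 2.71 and 9.25 in isolated regions.

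The extremes of width and fold were near the autosomal background. Regions of 3000 bp or more numbered 24 among the isolated ones (5.35%), beside 4.91% of all autosomal regions. Regions under 20 bp numbered 18 (4.01%), beside 3.36%. A fold of 4 or more was found in 47 isolated regions (10.5%), beside 12.1% of the 7655 autosomal regions with read numbers. A fold under 2 was found in 129 (28.7%), beside 25.8%. A lower 95% limit of the fold at 4 or more was found in 11 isolated regions (2.45%), beside 1.87%.

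Median width and −log10 q were highest among the regions with the shortest gaps. Regions with a neighbour within 500 bp had a median width of 587 bp and a median −log10 q of 6.19 over 3558 regions. From there to a shorter gap of 50 kb the medians changed little. Median width was 424 bp for shorter gaps of 500 to 1000 bp, 398 bp for 2 to 5 kb, 419 bp for 10 to 20 kb and 408 bp for 20 to 50 kb. Median −log10 q was 4.64, 4.34, 4.29 and 4.41 in these 4 classes. The 35 regions with both gaps over 50 kb had a median width of 577 bp, a median −log10 q of 5.83 and a median fold of 2.39. Their quartiles, 359 and 782 bp for width and 2.79 and 12.5 for −log10 q, spanned the medians of the classes before them. With these 3558 regions and the 10 chromosome-end regions set aside, the isolated medians of 420 bp and 4.38 stood against 424 bp and 4.49 in the remaining 3643 of the other autosomal regions.

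**Figure D2:**
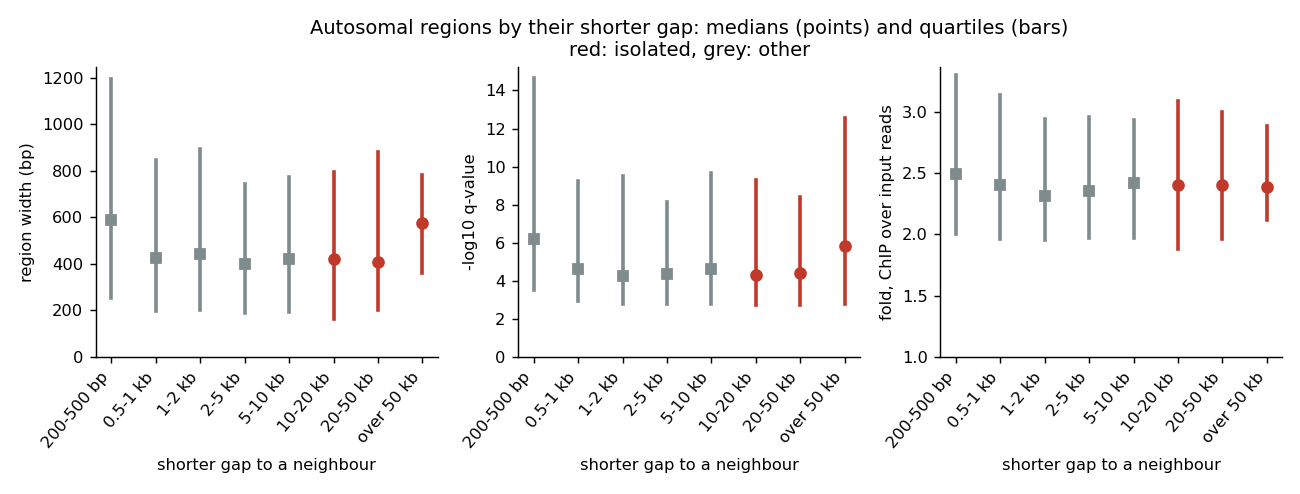
Autosomal regions were divided by the shorter of their 2 gaps (x axis), and the panels show region width in bp, −log10 q-value and fold of ChIP over input reads, each as median (point) and quartiles (bar). Grey classes are other autosomal regions and red classes are isolated ones. Regions with a neighbour within 500 bp had a median width of 587 bp, and the classes from 0.5 to 50 kb lay between 398 and 442 bp.

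Within the isolated set the distance itself carried no visible trend. Across the 449 regions the shorter gap and the fold had a Spearman rho of 0.0031, the shorter gap and −log10 q one of 0.020, and the shorter gap and width one of 0.060. Width and −log10 q had a rho of 0.71, and width and fold one of −0.20. In the other autosomal regions these last 2 values were 0.72 and −0.20. These points share libraries and the q-value limit, and a wide region holds more reads, so the values describe the list.

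Regions at the edge of a group were close to regions inside groups in width and q-value, and close to isolated regions in fold. Against the isolated median width of 420 bp, the 2474 regions with 1 gap over 10000 bp had one of 499 bp, and the 4727 regions with both gaps at or under that limit had one of 486 bp. The median −log10 q was 4.38 in isolated regions, 5.20 at the edges and 5.23 inside. The median fold was 2.40 in isolated regions, 2.39 at the edges and 2.45 inside. Median fold was highest in the largest groups, but ChIP reads per kb were not. Groups of 1 held 258.9 ChIP and 99.5 input reads per kb. Groups of 10 or more held 242.2 and 91.7. By size of the group the median fold was 2.40 in the isolated regions, 2.31 in groups of 2 to 4, 2.35 in groups of 5 to 9 and 2.60 in groups of 10 or more regions.

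The number of isolated regions was similar on the 5 autosomes although their region density was not. Chromosome I had 91 isolated regions, II had 94, III had 79, IV had 95 and V had 90. Per Mb of span this was between 4.32 on chromosome V and 6.16 on chromosome II, while all listed regions ran from 64.7 per Mb on V to 128.5 per Mb on I. The isolated share was thus lowest where regions were dense. It was 4.73% on chromosome I (95% Clopper-Pearson interval 3.83 to 5.78) and 4.88% on III (3.88 to 6.05). Chromosome II had 6.45% (5.24 to 7.84), V had 6.67% (5.40 to 8.14) and IV had 7.24% (5.89 to 8.77). On the X chromosome, which the rule leaves out and where regions are sparse (26.2 per Mb), 134 of 461 regions (29.1%) met the same gap limit. The autosomal isolated regions were narrower than these X regions, with medians of 420 and 728 bp, and had a higher median fold, 2.40 against 1.91.

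Chromosome II departed from the other autosomes. Its 94 isolated regions had a median −log10 q of 5.79, against 5.24 in the other regions of that chromosome, and a median width of 491 bp against 494 bp. On chromosomes I, III, IV and V both medians were lower in isolated regions. On chromosome III, for example, the median width was 334 bp in isolated regions and 432 bp in the others, and the median −log10 q was 4.24 and 5.24. Median fold was lower in isolated regions on III (2.32 against 2.42) and IV (2.20 against 2.31). On chromosomes I (2.54 against 2.52), II (2.49 against 2.43) and V (2.45 against 2.44) it was higher by a small amount.

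**Figure D3:**
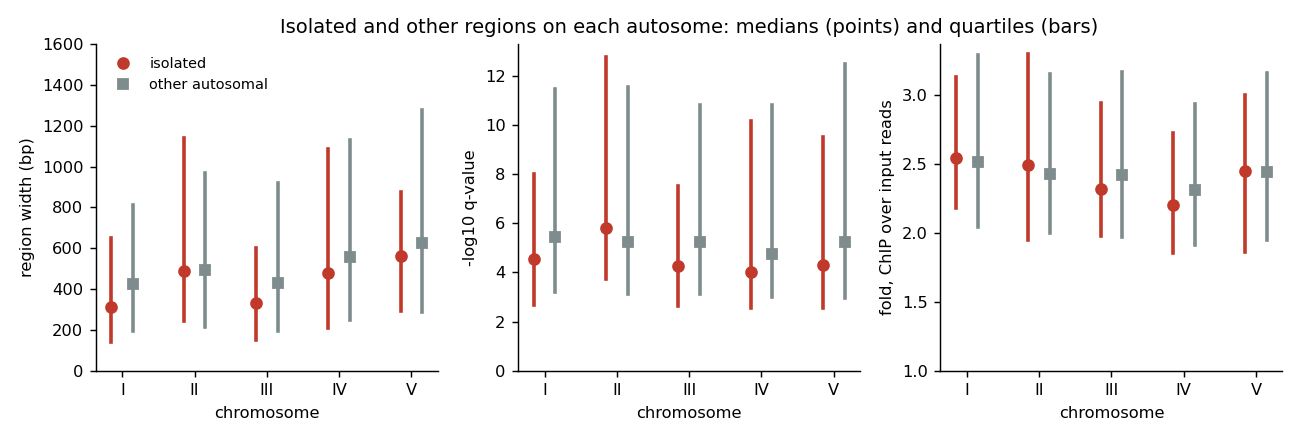
Region width in bp, −log10 q-value and fold of ChIP over input reads are shown for each autosome (x axis) as median (point) and quartiles (bar), with isolated regions in red left of the other autosomal regions in grey. On chromosome II the isolated median −log10 q was 5.79 against 5.24, and on the remaining 4 chromosomes it was below that of the other regions.

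Isolated regions were placed more often in the middle parts of chromosomes I, III, IV and V than the other regions of these chromosomes. The difference was largest on IV and V. Over the 5 autosomes, 280 isolated regions (62.4%, interval 57.7 to 66.9) lay outside the middle part, when the span of each chromosome was divided into 3 equal parts, against 4943 other regions (68.5%, 67.5 to 69.6). On chromosome V the middle part held 43 of 90 isolated regions (47.8%), against 35.0% of the other regions. On chromosome IV it held 41 of 95 (43.2%), against 27.7%. In that middle part of chromosome IV, 10.8% of the listed regions were isolated, the highest value of the 15 parts of the autosomes. On chromosomes I and III the middle part held 35.2% and 36.7% of the isolated regions, against 30.2% and 31.8% of the others. Chromosome II had the opposite order, with 25.5% of its isolated regions and 32.8% of its other regions in the middle part. Its left part held 37 isolated regions, or 8.13% of the regions there.

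**Figure D4:**
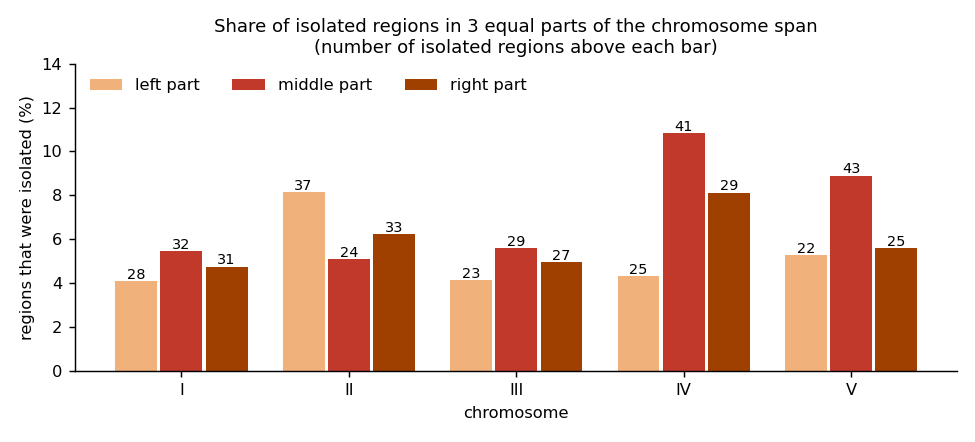
Bars give the share (%) of listed regions that were isolated in the left, middle and right of 3 equal parts of each autosome's span, and the number above a bar counts the isolated regions. The middle parts of chromosomes IV and V reached 10.8% and 8.90%, while on chromosome II the left part was highest at 8.13%.

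Position within the chromosome went with width and fold in isolated and other regions alike. Isolated regions of the middle parts had a median width of 562 bp and a median fold of 2.17. Isolated regions of the outer parts had a median width of 381 bp and a median fold of 2.52. The other autosomal regions had 624 bp and 2.19 in the middle parts and 436 bp and 2.58 in the outer parts. Isolated regions were thus narrower in both places, and their fold was close to that of their surroundings.

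The strongest isolated regions stood near the top of the listed regions. The first of them had rank 51, counted with the 47 stronger ranks that were not analysed. The lowest q-value belonged to chromosome IV from 17276929 to 17282131, 5203 bp wide, with 2529 ChIP against 576 input reads, which gave a fold of 4.39 (95% interval 4.01 to 4.81) and q = 1.07e-287. Its gaps were 18.7 kb to the left and 49.1 kb to the right. Both its neighbours were weak, with 145 ChIP and 95 input reads in the left one and 138 ChIP and 95 input reads in the right one, so that a region near the top of the list stood between 2 near its limit. This did not hold for all strong isolated regions. The one with the lowest q-value on chromosome II had neighbours with q = 2.57e-124 and q = 8.69e-55.

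On chromosome III the lowest q-value was that of the region from 7728556 to 7739114, 10.6 kb wide with 3728 ChIP and 1265 input reads (fold 2.95, 2.76 to 3.14, q = 1.19e-275). On chromosome I it was the region from 7471867 to 7476112, 4246 bp wide with 1882 ChIP and 432 input reads (fold 4.36, 3.92 to 4.85, q = 1.07e-212). The gap to its left measured 152.4 kb and that to its right 19.3 kb. Chromosome II was led by the region from 12987750 to 12993764, 6015 bp wide with 2132 ChIP and 600 input reads (fold 3.55, 3.24 to 3.90, q = 9.14e-198). Chromosome V had its lowest isolated q-value at 8038197 to 8041033, 2837 bp wide with 1173 ChIP and 240 input reads (fold 4.89, 4.25 to 5.64, q = 9.71e-146). All 5 leading regions were at least 2837 bp wide, against the set's median of 420 bp. Width and −log10 q rose together across the set (Spearman rho 0.71), so a choice by lowest q favours wide regions.

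Regions with high enrichment also stood alone. Of the 6 with the highest lower limit of the fold, 4 lay on chromosome II, which held 20.9% of the isolated regions. All 6 were wider than the isolated median of 420 bp. The region from 5543385 to 5544738 had 1047 ChIP and 101 input reads within 1354 bp, which gave a fold of 10.4 (8.45 to 12.8), with gaps of 33.5 and 42.0 kb. The region from 5844637 to 5845557 had 878 ChIP and 83 input reads within 921 bp, which gave a fold of 10.6 (8.44 to 13.4), with gaps of 11.5 and 21.4 kb. Another one, from 14017884 to 14018494, had 294 ChIP and 32 input reads within 611 bp, which gave a fold of 9.19 (6.37 to 13.7). The fourth, from 12943943 to 12945084, had a fold of 6.63 (5.48 to 8.09) and is the left neighbour, 42.7 kb away, of the region that led chromosome II by q-value. Outside chromosome II, the region on IV from 6294090 to 6296155 contained 1194 ChIP against 166 input reads (fold 7.19, 6.11 to 8.51), and that on III from 12684849 to 12688445 contained 1341 ChIP against 253 input reads (fold 5.30, 4.63 to 6.09). They were 2066 and 3597 bp wide. The gap left of the region on IV was 138.8 kb long.

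**Figure D5:**
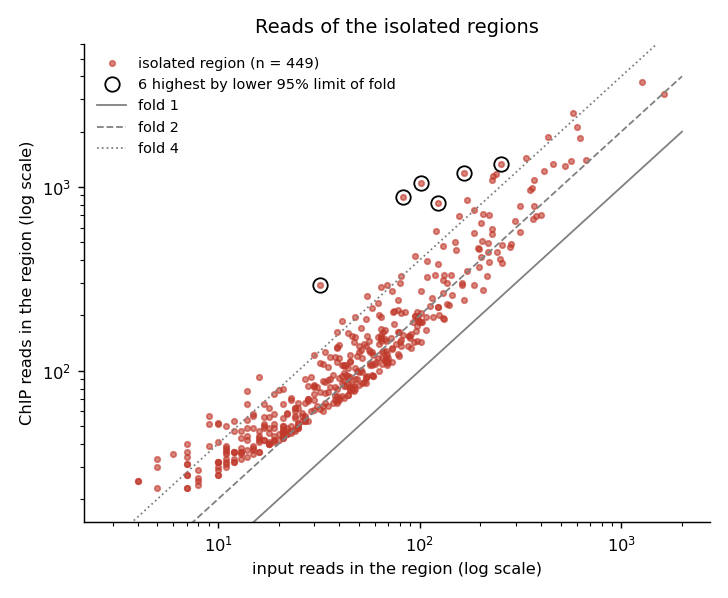
Each of the 449 isolated regions is drawn by its input reads (x axis, log scale) and its ChIP reads (y axis, log scale), with lines at folds of 1, 2 and 4. Open circles mark the 6 regions with the highest lower 95% limit of the fold, which had folds between 5.30 and 10.6, and the median of all was 2.40.

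The 5 widest isolated regions had folds between 1.99 and 3.55. Across the set, the 24 isolated regions of 3000 bp or more had a median fold of 2.64. It was 2.12 in the 42 regions from 1000 to 1999 bp and 2.17 in the 135 regions from 200 to 499 bp. The other autosomal regions had 2.67, 2.30 and 2.27 in these classes. Fold did not rise steadily with width in the list, since the 50 isolated regions from 1 to 99 bp had a median of 3. The other autosomal regions of that class had 3.2. Those isolated regions held medians of 33 ChIP and 11 input reads, and at few reads the q-value limit admits only higher folds. Chromosome IV from 10667964 to 10680190 was the widest, at 12.2 kb, with 3219 ChIP against 1621 input reads, which gave a fold of 1.99 (1.87 to 2.11) and gaps of 47.2 and 41.8 kb. Chromosome V from 20666332 to 20673598 was 7267 bp wide at a fold of 2.10 (1.91 to 2.30) and lay at 99.2% of the chromosome span. Chromosome V from 10711310 to 10718021 was 6712 bp wide at a fold of 2.97 (2.71 to 3.25). The remaining 2 of the 5 widest were the leading regions of chromosomes III and II.

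The 6 regions with the longest shorter gap lay on chromosomes V and IV, and their q-values ran from 4.13e-05 to 8.93e-35. Among the autosomes, V and IV had the largest shares of their span in gaps over 10000 bp, 85.9% and 82.2%. The gap is also part of the rule, so this placement is a description. The most remote was chromosome V from 17538161 to 17538851, 691 bp wide with 105 ChIP against 35 input reads, which gave a fold of 3 (2.03 to 4.53), q = 8.48e-09 and gaps of 222.6 and 319.2 kb. Its left neighbour, from 17314951 to 17315582, was also isolated, with 89 ChIP and 35 input reads (fold 2.54, 1.70 to 3.88). On chromosome V the region from 3979755 to 3981451 had gaps of 200.9 and 151.8 kb and a fold of 2.33 (1.91 to 2.85), and that from 16225269 to 16225964 had gaps of 196.9 and 132.6 kb and a fold of 4.18 (2.93 to 6.09). On chromosome IV the region from 16167332 to 16171015 had a fold of 2.14 (1.89 to 2.43) over 3684 bp, and that from 15852968 to 15853751 had 139 ChIP and 76 input reads (fold 1.83, 1.37 to 2.45). Only the region from 16167332 was wider than 3000 bp among these 6.

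The 449 isolated regions formed 329 runs, in which each region was the next listed one after the last. Successive isolated regions share a gap that the rule already requires to be long, so the runs are a description of the rule's outcome. Of the 449 regions, 237 were alone in this sense and 212 (47.2%) stood in 92 runs of 2 or more. The runs described here were chosen after their values were seen. The longest, on chromosome II, had 7 regions from 1651539 to 2054118, in a stretch of 550 kb without any other listed region. Their folds ran from 1.51 to 3.64 and their widths from 528 to 3886 bp. The strongest of them, from 1819304 to 1820870, contained 397 ChIP against 109 input reads (fold 3.64, 2.94 to 4.54) and was followed by 232.3 kb without a listed region.

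On chromosome IV, 4 successive isolated regions from 16167332 to 16504603 were the only ones listed in a stretch of 623 kb. All 4 were at least 2520 bp wide, and their folds in order of position were 2.14, 4.47, 4.97 and 2.39. The third of them, from 16397289 to 16400219, contained 1143 ChIP against 230 input reads (fold 4.97, 4.31 to 5.75, q = 7.80e-144). A run of 5 on chromosome IV, from 7159513 to 7283662, was more even, with folds of 2.08 to 2.71 and widths of 170 to 2020 bp. On chromosome V, a run of 3 from 17155488 to 17538851 stood in a stretch of 730 kb with no other listed region, and its ChIP reads numbered 34 to 105 a region.

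At the other end, the weakest isolated regions lay at the q-value limit. Chromosome V from 3257899 to 3258210 contained 47 ChIP against 24 input reads (fold 1.96, 1.17 to 3.35, q = 0.00976), with gaps of 62.5 and 182.9 kb. Chromosome II from 3905276 to 3905765 had a fold of 1.59 (1.12 to 2.28), and chromosome IV from 9643430 to 9644143 had one of 1.42 (1.09 to 1.85). The narrowest members, named after their values were seen, were 1 bp wide. At chromosome I position 12888811 there were 25 ChIP and 4 input reads (fold 6.25, 2.16 to 24.7), and at chromosome III position 3852224 there were 29 ChIP and 10 input reads (fold 2.90, 1.37 to 6.67). Their intervals were wide because few reads were counted.

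Folds of the 3 regions just inside and the 3 just outside the limit overlapped, but so few regions cannot show whether both sides are alike. The 3 nearest inside had shorter gaps of 10018, 10037 and 10079 bp and folds of 1.56, 2.39 and 3.44. The 3 nearest outside had shorter gaps of 9995, 9994 and 9952 bp and folds of 1.85, 2.61 and 2.95.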

How the data were processed

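Early embryos of strain N2 were profiled by Pol II ChIP-seq with 2 ChIP and 2 input libraries. The deposited file is 1 combined list of regions. Per the file headers its coordinates are WormBase WS180, and each line names PeakSeq as its source. Each region has 1 deposited q-value, that is a p-value after correction over the tested regions, and all lay under 0.01. Starts and ends of regions, deposited beside it, are printed 1-based. Not given in the sources used here are the mapper, versions, settings, depth per library and how replicates were combined. The labels' general protocol text names an anti-GFP serum, and the antibody field, which names 8WG16, was followed.

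Ranks were recovered from 2665 pairs of neighbouring lines with equal p, and the number of tested regions from exact binomial upper tails with probability 0.5. With 18572 tested regions, 8116 of 8121 regions had a single solution for their ChIP and input reads, within 1e-09 in the natural logarithm of p. All 449 isolated regions did. Totals lower or higher by 1 matched 0. These steps were checked on simulated data. Folds carry 95% Clopper-Pearson intervals. Named regions were the 8 lowest in q, the 5 widest, the 6 highest by lower limit of fold, the 6 with the longest shorter gap, the lowest q per autosome, the 3 highest in q and 3 on each side of the gap limit. The members and rules were chosen with earlier results of these data known. Alternatives were other gap limits, the stronger 50% of regions, merging of neighbours within 1000 bp, leaving out regions under 20 bp, distances between centres, other outer parts, matching in 10 classes, and each chromosome in turn. Python 3.11.15, numpy 2.4.6, scipy 1.17.1 and pandas 2.3.3 were used.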

Additional observations from a re-analysis of the deposited data

How the results depend on the processing

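Of 57 alternatives to 6 values, 46 reversed no sign and left the value within its 95% binomial interval. For the number of members the limit was a factor of 1.5 instead. In 5 alternatives the sign was reversed, and in 6 the value moved further. The number of isolated regions, 449, was 823 at a gap limit of 5000 bp, 192 at 20000 bp and 685 after merging neighbours within 1000 bp, each by construction. Their share on chromosome V, 20.0%, was 27.1% at 20000 bp. The share in the outer parts, 62.4%, was 44.3% with the outer 25% on each side (others 51.5%) and 78.0% with the outer 40% (others 81.1%), so it stayed below that of the other regions. The difference in median −log10 q, isolated minus other, was −0.84. It became 0.063 after merging, 0.098 at matched width and 0.94 at matched total reads. In the last case it was negative in 7 of 10 classes, and 11.3 in the class of most reads. The log2 ratio of median folds, −0.017, became 0.0051 without chromosome III and 0.0077 without chromosome IV. It was −0.058 at matched width and −0.062 at matched total reads. The interval of the main value, −0.094 to 0.042, held both signs, so the ratio has no settled direction. The log2 ratio of median widths, −0.23, was negative under its 12 alternatives and −0.035 at matched total reads. No paired analysis was possible because both replicates were joined in 1 list, which also kept single replicates from being left out. Depth per library is unknown, and regions that missed the q-value limit may lie in any gap.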
